A study of Neurospora crassa with 18 samples.

Results

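The genes described here are unmarked, expressed genes of *Neurospora crassa*, a filamentous fungus, that lie next to a gene carrying ASH1-dependent histone H3 lysine 36 dimethylation (H3K36me2). They were chosen by measured values. A border gene was absent from the authors' list of ASH1-marked genes and from their list of genes with H3K27 di- and trimethylation (H3K27me2/3), had more than 3 counts summed over the 2 WT libraries, and had an ASH1-marked gene as its next gene on at least 1 side. The rule found 1380 genes of 9730 (14.2%), which is 19.7% of the 6993 expressed unmarked genes, and the other 5613 of those had no marked neighbour. Marked genes lay on 1 side of 1264 border genes and on both sides of 116, which gave 1496 pairs of a border gene and a marked neighbour with 1128 different neighbours among 1970 marked genes. Of 1527 unmarked genes beside a marked gene, 147 had 3 WT counts or fewer and were left out. Just inside the threshold 10 genes had exactly 4 WT counts, and just outside it 14 genes had exactly 3.

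RNA was measured in 4 strains with 2 poly-A+ libraries each, made from germinated conidia. The ash1(Y888F) strain carries a point mutation in the catalytic SET domain of ASH1 together with a 3xFLAG tag, is mating type A, carries his-3 and has an intact mus-52. The strain labelled as a deletion of set-2, the gene for SET-2, is mating type a and is listed without his-3, so it differs from the other strains in both. Reads were still assigned to set-2 there (46 and 50 counts, against 120 and 153 in WT). The strain is called the set-2 deletion here by its label. The mus-52 deletion parent is mating type A with his-3, and WT is mating type A with his-3 and an intact mus-52. mus-52 had 277 and 483 counts in ash1(Y888F), 255 and 356 in the set-2 deletion and 278 and 347 in WT, against 2 in each parent library, so each mutant differs from the parent in mus-52 too. The ASH1 lists came from 1 H3K36me2 ChIP-seq sample of the set-2 deletion strain. The libraries of a strain are described in the study as biological replicates. Whether each came from a culture of its own is not given in the sources used here, and p-values measure the spread between these libraries.

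H3K36 methylation is laid down in this fungus by a pair of enzymes. SET-2 travels with elongating RNA polymerase II and marks transcribed genes, whereas ASH1, a relative of a *Drosophila* Trithorax-group protein, acts independently of the polymerase and marks genes with little transcription, some of which also carry H3K27 methylation. Border genes lie at the edge of a marked stretch and are absent from the authors' list of ASH1-marked genes. Whether they carry the SET-2 mark, or a weaker ASH1 mark, was not examined here. The comparison below asks whether their RNA changed in the strain with mutated ASH1.

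Counts in genes ranged between 6547197 and 8837798 a library. Reads that fell in no gene or in more than 1 were 11.1% to 12% of all assigned and unassigned reads in the ash1(Y888F) and set-2 deletion libraries, 3.69% and 4.30% in the parent and 8.14% and 7.15% in WT. The library names end in a number that reads as a date, and no source used here says what it dates. WT and the parent share one, ash1(Y888F) replicate 2 and both set-2 deletion libraries share another, and ash1(Y888F) replicate 1 has its own, so whatever it dates cannot be told apart from strain between either mutant and the control strains. The 6 markers of conidia and conidiation (con-6, con-8, con-10, con-13, eas and cat-1) summed to 292 and 311 counts per 1000000 counts in genes (CPM) in ash1(Y888F), 992 and 1083 in the set-2 deletion, 253 and 247 in the parent and 172 and 107 in WT, with con-13 at 0 in 1 parent library. The markers did not move together. eas, the conidial hydrophobin gene, had 76 and 82 counts in ash1(Y888F), 1966 and 999 in the set-2 deletion and 1333 and 1620 in the parent, against 338 and 454 in WT. cat-1, the catalase gene of conidia, had 1072 and 799 counts in ash1(Y888F), 3217 and 3736 in the set-2 deletion and 612 and 462 in the parent, against 579 and 272 in WT. The part of these differences in the results below was not tested.

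More border genes were called higher than lower in ash1(Y888F) against WT over all WT levels together, but not among the better expressed ones, where 37 were higher and 53 lower at 5 CPM per kb of gene span or more in WT. Of 1322 border genes that passed the filter on low counts, edgeR's quasi-likelihood test called 109 up (8.25%) and 55 down (4.16%) at an adjusted p under 0.1, while over all 8125 genes tested 13% were higher and 3.36% lower, a background that includes the marked genes themselves (681 of 1167 higher, 58.4%). Among 5448 tested unmarked genes with no marked neighbour, 197 were higher (3.62%) and 193 lower (3.54%). The median log2 fold change was 0.00 for border genes, -0.08 for genes with no marked neighbour and 0.01 over all genes, and the quartiles were -0.35 and 0.48 for border genes and -0.40 and 0.24 for genes with no marked neighbour. In bulk libraries such as these, fewer cells of a type and less RNA per cell cannot be told apart. The 109 genes had a median log2 fold change of 2.17, and 102 of them exceeded 1, while the 55 lower genes had a median of -1.33. In all 164 called border genes both ash1(Y888F) libraries lay beyond both WT libraries. With 2 libraries a strain a call nearly requires this, so it adds no support. Since low-count genes can pass the filter through the strain in which they are high, the same was computed with every gene in the fit, and 110 of 1380 border genes were then higher (7.97%), against 3.58% of the 5613 genes with no marked neighbour.

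The count depended on which libraries entered. Without ash1(Y888F) replicate 1 or 2 it was 158 or 147 border genes higher and 161 or 89 lower, and without WT replicate 1 or 2 it was 69 or 57 higher and 24 or 19 lower. Without ash1(Y888F) replicate 1 the lower genes thus slightly outnumbered the higher ones. The share of border genes that were higher stayed 1.85 to 2.89 times that of genes with no marked neighbour in these 4 fits. With the parent as the control, whose libraries the choice of members did not use, 153 of 1320 border genes were higher (11.6%) and 57 lower (4.32%), against 5.61% and 4.35% of genes with no marked neighbour and 15.9% and 4.01% of all genes tested. The ash1(Y888F) libraries are the same in both comparisons.

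The WT level of a gene bore on how often it was called. Border genes were less expressed in WT, with a median of 11.7 CPM per kb of gene span (quartiles 4.15 and 29.6), against 15.9 (7.18 and 38.5) for genes with no marked neighbour. Under 1 CPM per kb, 40 of 66 tested border genes were higher in ash1(Y888F) (60.6%) against 46 of 115 genes with no marked neighbour, but 48 of the 114 border genes at this level were not tested and the classes were cut on the same WT libraries that the fold change divides by. Between 1 and 5 CPM per kb the shares were 12% and 8.64%, between 5 and 20 they were 4.92% and 2.37%, and at 20 or more they were 2.49% and 1.51%. All 990 border genes and all 4615 genes with no marked neighbour at 5 CPM per kb or more were tested, and there 37 border genes were higher (3.74%) against 89 (1.93%), and 53 were lower (5.35%) against 189 (4.10%). Against the parent, the same genes gave 70 higher (7.07%) against 157 (3.40%). If border genes at each WT level had been called as often as genes with no marked neighbour, 68.7 of them would have been higher in ash1(Y888F) than in WT, against the 109 found (1.59 times), and 98.7 higher than in the parent, against 153 (1.55 times). For lower genes it was 41.5 against 55 found (1.32 times) with WT as the control, and 54.3 against 57 (1.05 times) with the parent. Between the control strains, 16.4 would have been lower in the parent than in WT, against 25 found (1.52 times). For higher genes there it was 3.86 against 1 found (0.259 times).

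**Figure D1:**
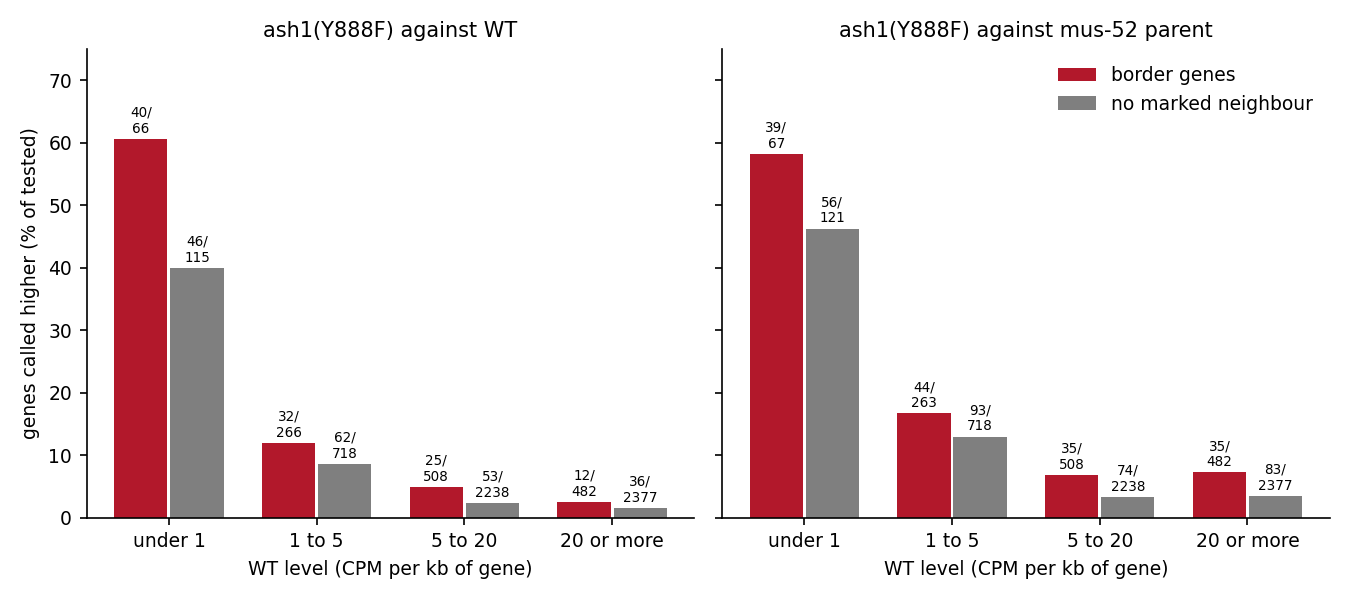
Share of genes called higher in ash1(Y888F) (y axis, percent of tested genes) by WT level (x axis, CPM per kb of gene span), for border genes (red) and unmarked genes with no marked neighbour (grey), against WT on the left and against the mus-52 parent on the right, with called and tested genes above each bar. The red bar was the taller at every level in both panels, for instance 4.92% against 2.37% at 5 to 20 CPM per kb against WT.

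The excess of higher genes was seen 1 gene from the mark and was smaller beyond it. Counting in gene steps to the nearest marked gene, 8.25% of genes at 1 step, 4.51% at 2, 3.87% at 3, 4.68% at 4 and 3.02% at 5 or more were higher in ash1(Y888F) than in WT. Lower genes showed no such drop, with 4.16%, 4.03%, 4.12%, 4.52% and 3.02% at the same steps. At a WT level of 5 CPM per kb or more, the higher shares were 3.74%, 2.86%, 2.62%, 2.11% and 1.40%. Against the parent the shares at that level were 7.07%, 2.98%, 5.98%, 3.45% and 2.84%, so the decline beyond the first step was not even there. With a marked gene on both sides, 11 of 111 border genes were higher (9.91%), and with 1 on a single side 98 of 1211 (8.09%).

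**Figure D2:**
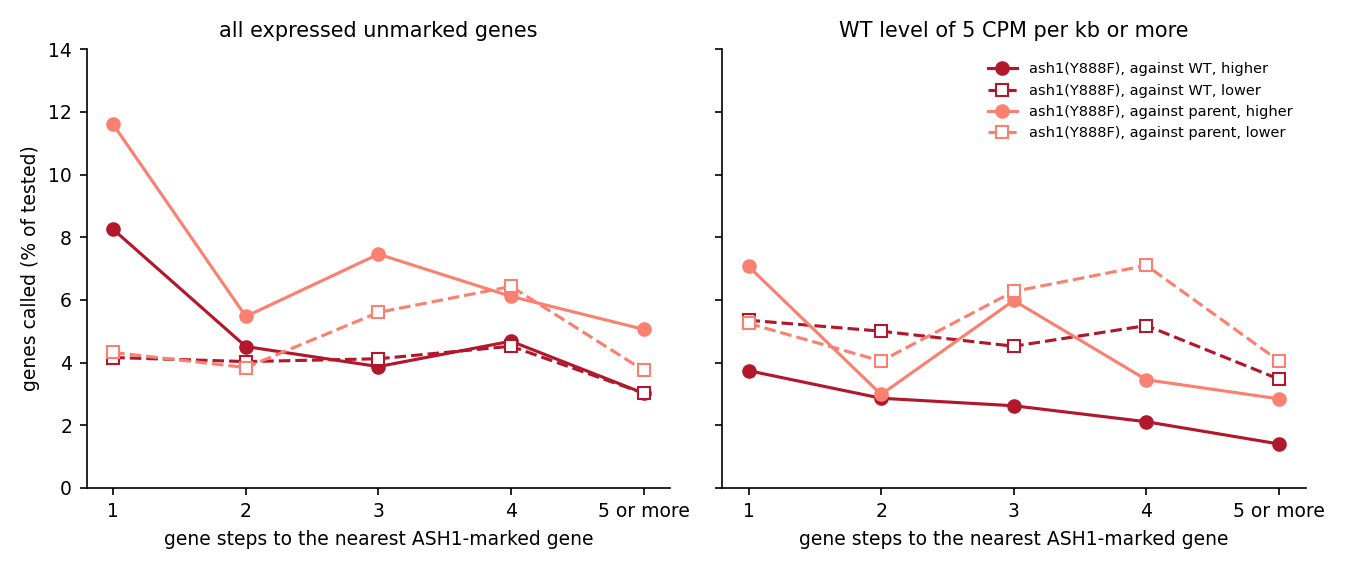
Share of expressed unmarked genes called in ash1(Y888F) (y axis, percent of tested genes) by the number of gene steps to the nearest ASH1-marked gene (x axis), for all such genes on the left and those at 5 CPM per kb or more in WT on the right. Filled circles are higher and open squares lower genes, dark red against WT and light red against the parent; the higher share against WT was 8.25% at 1 step and 3.02% at 5 or more.

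Orientation, distance and the length of the marked run all went with how often a border gene was higher in ash1(Y888F). Where the marked gene lay upstream on the same strand (tandem), 33 of 252 border genes were higher (13.1%). Where it lay upstream and pointed away (divergent) 27 of 295 were higher (9.15%), where it followed in tandem 34 of 456 (7.46%), and where it faced the border gene from downstream (convergent) 26 of 430 (6.05%). Among genes at 5 CPM per kb or more, however, the shares were 5%, 2.74%, 3.82% and 3.65%, on 6 to 13 genes each, so the order of the last 3 did not hold at higher WT levels. Against the parent the shares of all tested border genes were 16.2%, 10.5%, 12.6% and 9.30%, where divergent neighbours came after those that followed in tandem. In the set-2 deletion against WT the same shares were 20.8%, 18.2%, 25.3% and 21.7%, so there neighbours that followed in tandem had the highest share.

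A marked neighbour within 500 bp, overlaps included, went with 41 of 381 higher border genes (10.8%). At 500 to 1000 bp it was 30 of 286 (10.5%), at 1000 to 2000 bp 20 of 340 (5.88%), and over 2000 bp 27 of 400 (6.75%). In genes at 5 CPM per kb or more the shares were 4.88%, 5.24%, 2.46% and 2.61%, again higher up to 1000 bp. Against the parent they were 6.97%, 10.5%, 6.56% and 5.88%, where genes within 500 bp lay close to those at 1000 to 2000 bp. Beside a run of a lone marked gene 52 of 762 border genes were higher (6.82%), beside 2 or 3 marked genes 42 of 457 (9.19%), and beside 4 or more 22 of 160 (13.8%), with 2.74%, 4.53% and 6.90% at 5 CPM per kb or more. Against the parent the 3 shares were 9.20%, 12.5% and 20.5% of all tested border genes, and 5.15%, 8.46% and 12.9% at 5 CPM per kb or more. In the set-2 deletion the shares of all tested border genes were 19.7%, 24.6% and 26.2% against WT, and 24.6%, 32.6% and 35.6% against the parent. The rise with run length was thus seen in both mutants. By gap, the set-2 deletion shares against WT were 24.5%, 21.6%, 22.2% and 19.9%.

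**Figure D3:**
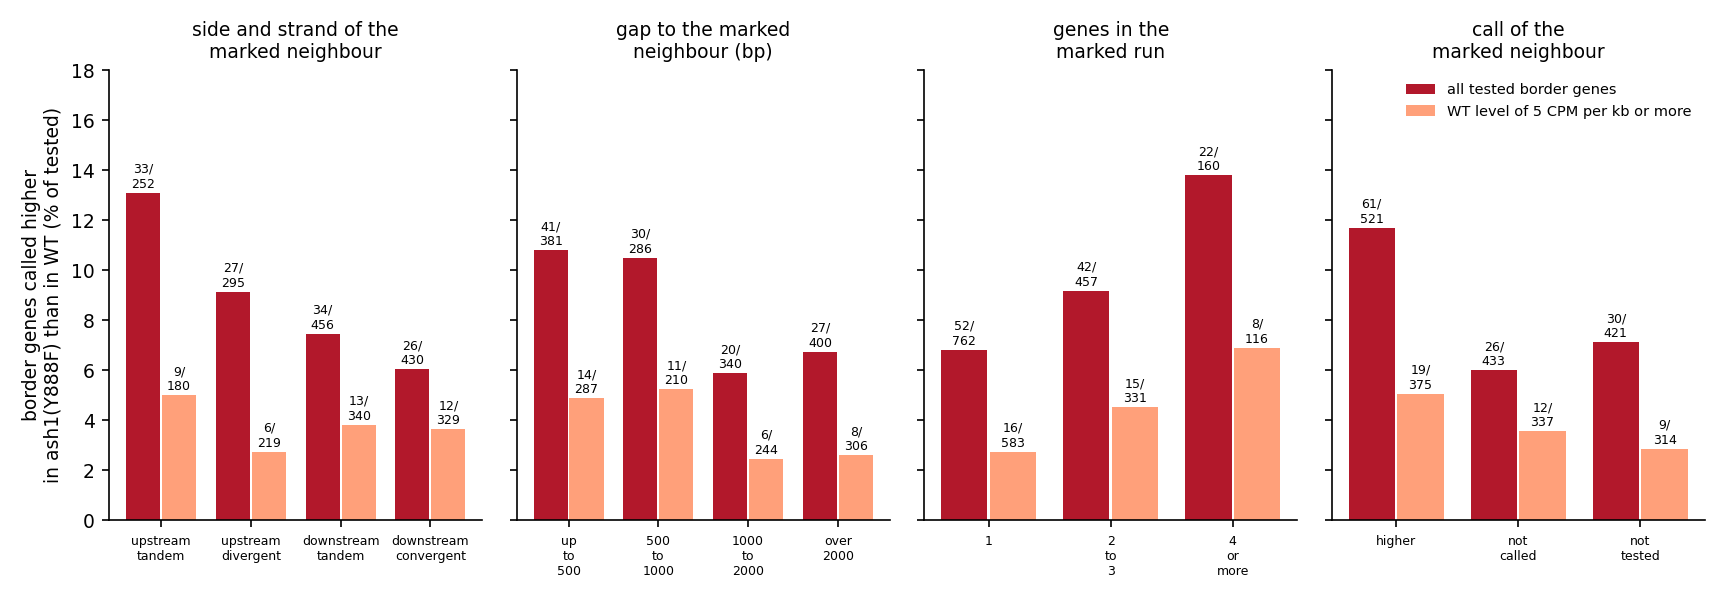
Share of border genes called higher in ash1(Y888F) than in WT (y axis, percent of tested genes) by side and strand of the marked neighbour, gap to it in bp, number of genes in the marked run and call of the neighbour itself (x axes). Dark bars are all tested border genes and light bars those at 5 CPM per kb or more in WT, with called and tested genes above each; runs of 4 or more marked genes had the tallest bars, 13.8% and 6.90%.

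The state of the neighbour itself also went with that of the border gene. Where the marked gene was higher in ash1(Y888F), 61 of 521 border genes were higher (11.7%) and 12 lower. Beside a marked gene that was tested and not called, 26 of 433 were higher and 23 lower, and beside one with too few counts to test, 30 of 421 (7.13%). At 5 CPM per kb or more the shares were 5.07%, 3.56% and 2.87%. Over the 1000 pairs in which both genes were tested, the log2 fold changes of border gene and neighbour correlated with a Pearson r of 0.134 and a Spearman coefficient of 0.126. The Spearman coefficient was 0.274 over 175 upstream tandem pairs, 0.255 over 217 upstream divergent pairs, 0.120 over 315 downstream tandem pairs and -0.0433 over 293 downstream convergent pairs. These are descriptions across pairs that share their libraries, and adjacent unmarked genes with no marked neighbour gave a coefficient of 0.0842 over 4452 pairs. With the parent as the control the Spearman coefficient was 0.0933 for upstream tandem and 0.177 for upstream divergent pairs, against 0.139 for adjacent unmarked genes, and over all 993 pairs it was 0.0821. The coefficient over all pairs in ash1(Y888F) was thus above that of adjacent unmarked genes against WT and below it against the parent. In the set-2 deletion against WT the Spearman coefficient was 0.163 over 720 pairs, against 0.0982 for adjacent unmarked genes. It was 0.412 over 174 upstream divergent, 0.169 over 114 upstream tandem, 0.0832 over 242 downstream tandem and -0.0387 over 190 downstream convergent pairs. There 73 of 263 border genes (27.8%) were higher beside a higher neighbour, and 58 of 311 (18.6%) beside one not called.

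**Figure D4:**
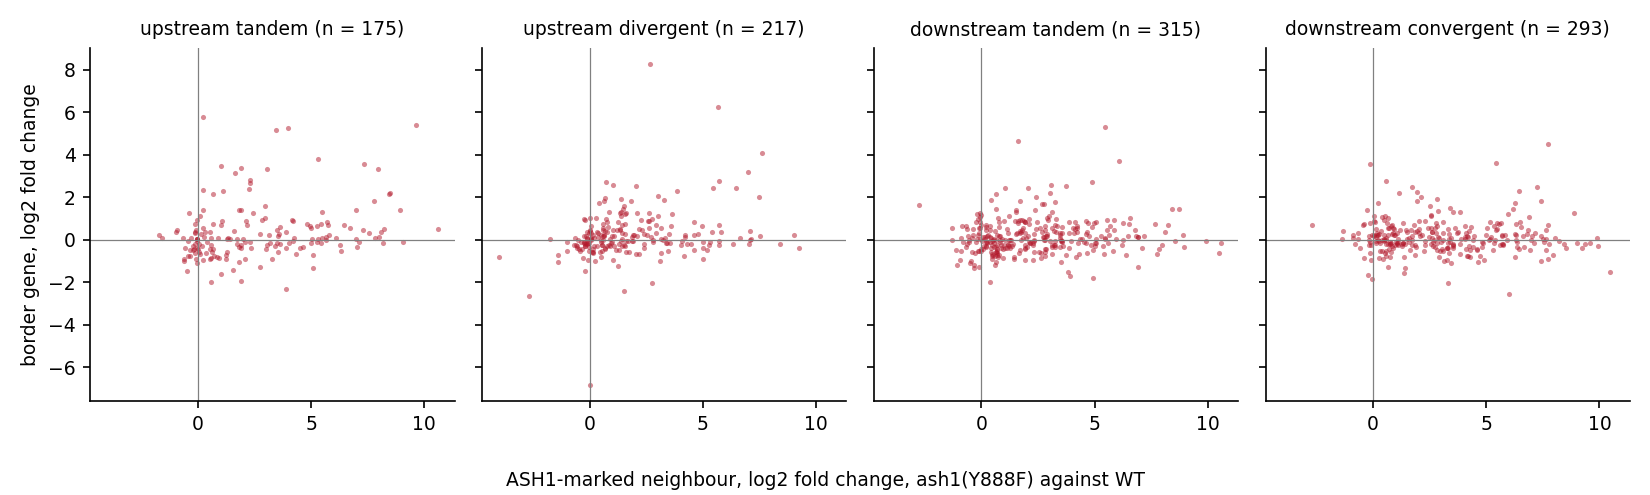
Log2 fold change in ash1(Y888F) against WT of the border gene (y axis) and of its ASH1-marked neighbour (x axis), each point a pair, in panels by side and strand of the neighbour. Neighbours spread far to the right of 0 while most border genes stayed near 0, and the Spearman coefficient was 0.274 in the upstream tandem panel and -0.0433 in the downstream convergent panel.

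Few neighbours carried H3K27me2/3, the repressive mark of Polycomb-type silencing. Beside such a neighbour edgeR called 11 of 126 border genes up in ash1(Y888F) (8.73%) and 9 down (7.14%), against 8.16% and 3.83% beside marked genes without it. The authors' table of H3K27me2/3 in ash1(Y888F) over WT gave a log2 value for the neighbour in 137 pairs. Where it fell by over 1, 4 of 32 border genes were higher and 1 lower. Where it stayed within 1, 5 of 79 were higher and 5 lower, and where it rose by over 1, 1 of 13 was lower. These counts are too small to compare.

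Border genes on LG VII had the highest share of the 7 linkage groups, 25 of 152 higher in ash1(Y888F) (16.4%), against 24 of 517 genes with no marked neighbour there (4.64%). LG III had the lowest share, 5 of 155 (3.23%) against 25 of 700 (3.57%), and the other linkage groups lay between 6.36% and 10.6%. Within 200 kb of a chromosome end 6 of 97 border genes were higher (6.19%) against 16 of 273 (5.86%), and beyond it 103 of 1225 (8.41%) against 181 of 5175 (3.50%). Another gene overlapped 16.2% of border genes, against 30.5% of genes with no marked neighbour, and 8.37% of the overlapped border genes were higher, against 8.22% of the others.

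The border genes with the largest increases in ash1(Y888F) had few counts in both control strains, at most 55 in any WT or parent library for the 10 with the largest fold. *NCU07034* (LG IV, 4980539 to 4982667 of the NC12 assembly, minus strand) had 1410 and 2577 counts in ash1(Y888F), 26 and 53 in the set-2 deletion, 5 and 9 in the parent and 9 and 4 in WT. It rose by a log2 fold change of 8.27 ± 0.54 (SE, adjusted p = 0.00205), and its divergent upstream neighbour gh18-9, a marked gene of glycosyl hydrolase family 18 at a gap of 948 bp, had 319 and 801 counts in ash1(Y888F) against 92 and 89 in WT (2.66 ± 0.42, adjusted p = 0.0134). Both genes of the pair thus rose, the unmarked one by far more.

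*NCU00806* (LG I, 7097634 to 7100186, minus strand) had 257 counts in each ash1(Y888F) library, 0 and 1 in the set-2 deletion, 0 and 2 in the parent and 2 in each WT library. The ratio of summed CPM was 146 (95% exact interval 56.7 to 538, counting error only), and the log2 fold change against the parent was 8.08 (adjusted p = 0.00293). Its marked downstream neighbour *NCU00807*, at a gap of 1691 bp, had no count in either strain, so here the border gene rose beside a marked gene that stayed undetected, which at 2 libraries each allows up to 3 counts. *NCU08969* (LG V, 5868146 to 5869980, minus strand) was alike, with 1382 and 995 counts in ash1(Y888F), 18 and 12 in the set-2 deletion, 2 and 4 in the parent and 9 and 11 in WT (6.97 ± 0.41, adjusted p = 0.00205), while its upstream tandem neighbour *NCU08970* had 3 and 2 counts in ash1(Y888F) and 0 in both WT libraries.

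*NCU06413* (LG III, 1314200 to 1317300, plus strand) rose in both mutants, with 672 and 730 counts in ash1(Y888F), 5046 and 1840 in the set-2 deletion, 25 and 51 in the parent and 13 and 6 in WT. The log2 fold changes against WT were 6.25 ± 0.41 in ash1(Y888F) (adjusted p = 0.00205) and 8.37 ± 0.72 in the set-2 deletion (adjusted p = 0.0018), both set against the same WT libraries. Its divergent marked neighbour *NCU06412*, 746 bp away, had 78 and 133 counts in ash1(Y888F), 533 and 164 in the set-2 deletion and 2 in each WT library, with intervals of the ratio to WT of 23.1 to 222 and 70.8 to 670. This pair of genes, marked and unmarked, was high in each mutant and low in each control strain.

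Pairs of adjacent genes with both members higher and at most 1000 bp between them included 3 more of this kind. *NCU08803* had 114 and 133 counts in ash1(Y888F) against 4 and 2 in WT (ratio 46.8, interval 21.2 to 129), and the marked gene *NCU08802*, 584 bp upstream in tandem and the end of a run of 5, had 85 and 112 against 0 and 0, at least 74.7-fold higher when WT is set at a floor of 3 counts over its 2 libraries. *NCU12025* on LG VII had 266 and 102 counts against 5 and 5 (5.29 ± 0.72, adjusted p = 0.00903), and its marked tandem neighbour *NCU12026*, 972 bp downstream, 135 and 126 against 1 and 5. *NCU05039* on LG VI had 68 and 85 counts against 1 and 3 (ratio 43.5, interval 16.6 to 162), and the marked *NCU05038*, 620 bp upstream in tandem, 39 and 38 against 0 and 5. In the set-2 deletion *NCU08803* had 6 counts in each library and *NCU05039* had 3 and 1, which is the WT range or close to it. *NCU12025* was called higher there against WT, with 14 and 24 counts (1.79, adjusted p = 0.0418), though not against the parent (0.92, adjusted p = 0.159), and so was the marked *NCU05038*, with 13 and 15 (2.33, adjusted p = 0.0892).

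*NCU04282* had 156 and 221 counts in ash1(Y888F) against 4 and 3 in WT (ratio 61.2, interval 29.4 to 153), although its marked neighbour *NCU04283*, 4769 bp upstream, did not pass the test (85 and 61 counts against 86 and 47, log2 fold change 0.21, adjusted p = 0.838). *NCU08432* had 209 and 68 counts against 6 and 6 (4.62 ± 0.77, adjusted p = 0.0155). *NCU05126* differed between the libraries of a strain, with 141 and 1737 counts in ash1(Y888F), 2169 and 2303 in the set-2 deletion, 13 and 17 in the parent and 48 and 3 in WT. Its change of 5.15 ± 1.45 (adjusted p = 0.0798) in ash1(Y888F) was 2.59 (adjusted p = 0.137) without ash1(Y888F) replicate 2.

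**Figure D5:**
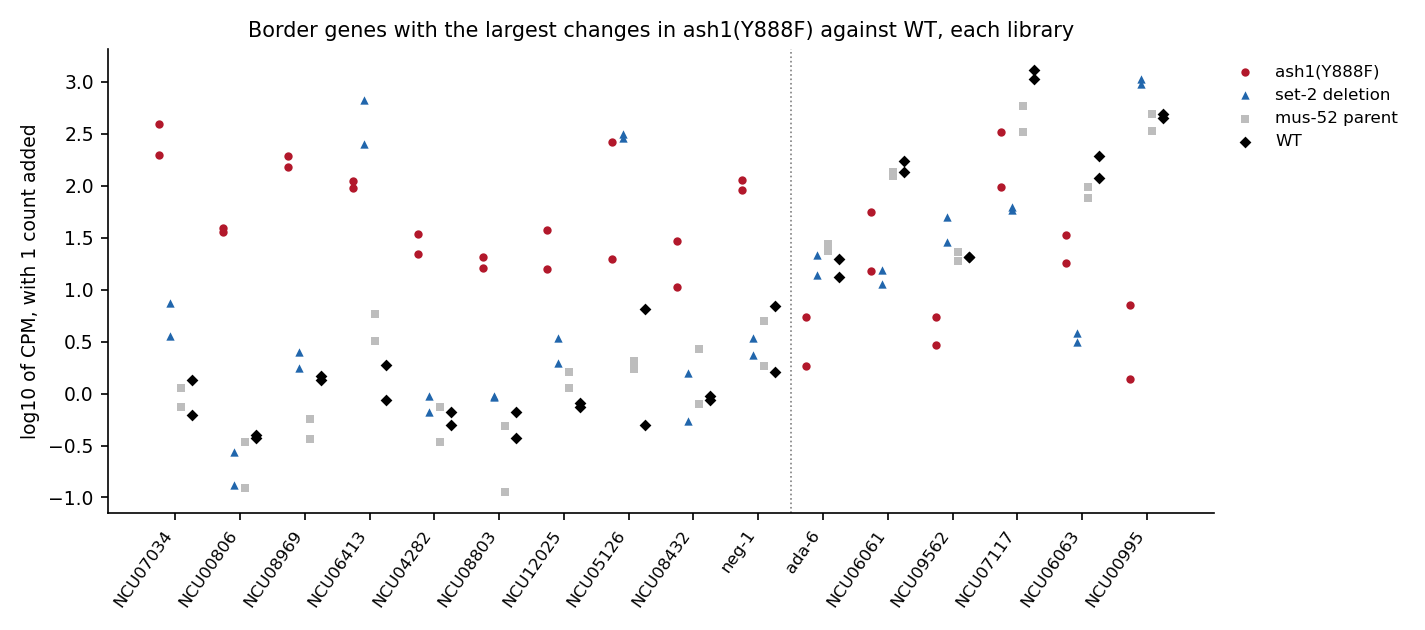
Counts of each library, as the log10 of CPM with 1 count added (y axis), for the 10 border genes with the largest increases in ash1(Y888F) against WT and, right of the dotted line, the 6 with the largest decreases (x axis). Red circles are ash1(Y888F), blue triangles the set-2 deletion, grey squares the mus-52 parent and black diamonds WT. Red lay above black for every gene left of the line and below it for every gene right of it, as the choice of these genes required.

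The largest decrease was that of *NCU00995* (LG I, 6456247 to 6457409, minus strand), with 50 and 8 counts in ash1(Y888F), 7247 and 7687 in the set-2 deletion, 3958 and 2929 in the parent and 3340 and 3930 in WT. It fell by 6.83 on the log2 scale (SE 0.88, adjusted p = 0.00781), and rose in the set-2 deletion by 0.93 ± 0.22 (adjusted p = 0.0256). Its divergent marked neighbour *NCU00994*, 3012 bp away, had 27 and 32 counts in ash1(Y888F) against 25 and 37 in WT and did not pass the test.

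*NCU06063* (1935141 to 1937701) and *NCU06061* (1941462 to 1943456) lie near each other on LG VII and both fell in both mutants. *NCU06063* had 128 and 216 counts in ash1(Y888F) and 28 and 22 in the set-2 deletion, against 878 and 1546 in WT, and *NCU06061* had 106 and 362 in ash1(Y888F) and 85 and 111 in the set-2 deletion, against 1000 and 1391. The log2 fold changes in ash1(Y888F) were -2.75 (adjusted p = 0.00826) and -2.32 (adjusted p = 0.0386). The marked neighbour of *NCU06061*, *NCU06060*, went the other way, with 61 and 115 counts in ash1(Y888F) against 8 and 4 in WT (3.89 ± 0.57, adjusted p = 0.0107).

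*NCU07117* had 694 and 2141 counts in ash1(Y888F) and 441 and 453 in the set-2 deletion, against 9593 and 8603 in WT and 4750 and 2918 in the parent. It fell against WT (-2.66, adjusted p = 0.0273), and was not called against the parent (-1.26, adjusted p = 0.208). Its divergent marked neighbour *NCU07119*, 6786 bp away, fell too, with 149 and 260 counts in ash1(Y888F) against 1468 and 1269 in WT (-2.70 ± 0.32, adjusted p = 0.00668). *NCU07119* also fell in the set-2 deletion, to 244 and 210 counts (-2.71, adjusted p = 0.0015). *NCU09562* had 38 and 18 counts in ash1(Y888F) against 152 and 167 in WT (-2.40, adjusted p = 0.025) and lies divergent to pho-4, a phosphate transporter gene that carries the mark. ada-6, a transcription factor gene required for normal asexual and sexual development, had 38 and 11 counts in ash1(Y888F) against 98 and 157 in WT (-2.25 ± 0.64, adjusted p = 0.082), and without WT replicate 2 its adjusted p was 0.172.

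Among border genes with a gene symbol, neg-1, which encodes a secreted glucanase that cuts fungal cell wall polymers, had 807 and 595 counts in ash1(Y888F), 17 and 24 in the set-2 deletion, 14 and 43 in the parent and 11 and 55 in WT. It rose by 4.52 ± 0.66 (adjusted p = 0.0108) beside *NCU04396*, the end of a run of 6 marked genes, which faces it at 202 bp and had 18 and 35 counts against 0 and 0 in WT (at least 20.1-fold higher). parp, the gene for poly(ADP-ribose) polymerase, had 339 and 432 counts in ash1(Y888F) against 98 and 151 in WT and 72 and 82 in the parent (1.71 ± 0.28, adjusted p = 0.0153). Of these, parp was called against either control, and so was neg-1 (4.91 against the parent, adjusted p = 0.00543).

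asd-1, an ascus development gene whose product is related to pectin-degrading enzymes, had 1450 and 5443 counts in ash1(Y888F), 992 and 867 in the set-2 deletion, 885 and 715 in the parent and 860 and 553 in WT (2.29 ± 0.61, adjusted p = 0.0679). Its marked neighbour is asd-3, another ascus development gene, which faces it at a gap of 57 bp and had 47 and 57 counts in ash1(Y888F) against 1 and 0 in WT. Without WT replicate 1 or 2 the adjusted p of asd-1 was 0.105 or 0.201. pmg had 954 and 546 counts in ash1(Y888F) against 57 and 107 in WT (3.31 ± 0.46, adjusted p = 0.0095), but the parent had 336 and 656 and the difference from it was not called (0.90, adjusted p = 0.249).

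tcu-1, a copper transporter gene, had 300 and 223 counts in ash1(Y888F) and 70 and 42 in the set-2 deletion, against 115 and 115 in WT. It rose in ash1(Y888F) (1.27 ± 0.32, adjusted p = 0.0573) and fell in the set-2 deletion (-1.15 ± 0.33, adjusted p = 0.0445), but the parent had 246 and 171 counts, and against it the change in ash1(Y888F) was 0.58 (adjusted p = 0.356). sub-1, a light-regulated transcription factor gene needed for sexual development, had 235 and 288 counts in ash1(Y888F) and 363 and 393 in the set-2 deletion, against 802 and 582 in WT and 405 and 415 in the parent. It fell against WT in ash1(Y888F) (-1.35, adjusted p = 0.0298), and its difference from the parent was -0.41 (adjusted p = 0.292). Neither gene kept its call in ash1(Y888F) when the parent served as the control. In ash1(Y888F) against WT, tcu-1 lost its call without WT replicate 1 or 2 (adjusted p = 0.19 or 0.249), and sub-1 without WT replicate 1 (0.187).

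In the set-2 deletion many more genes changed, in both directions, and the shares of border genes and of other unmarked genes lay closer together. Of 1321 tested, 291 were higher than in WT (22.0%) and 267 lower (20.2%), against 1002 higher (18.3%) and 1093 lower among 5468 genes with no marked neighbour, and over all 7741 genes tested 21.7% were higher and 19.8% lower. The median log2 fold change was -0.02 in both sets. If border genes at each WT level had been called as often as genes with no marked neighbour, 281 would have been higher, against 291 found (1.03 times), and 236 lower, against 267 (1.13 times). Against the parent 28.6% of border genes were higher and 24.1% lower, against 23.1% and 26.7% of genes with no marked neighbour and 27.2% and 25.1% of all genes tested. Whether the border share differs between the 2 mutants was not tested.

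The border genes that rose most in the set-2 deletion included con-10, a conidiation gene. It had 1001 and 1491 counts in the set-2 deletion, 63 and 68 in ash1(Y888F), 12 and 22 in the parent and 18 and 2 in WT, a ratio to WT of 130 (84.1 to 213) in the set-2 deletion. Marked genes lie on both of its sides, one of them con-13, itself a conidiation gene, which had 1 and 2 counts in the set-2 deletion and 1 in each WT library. con-10 is one of the 6 markers given above. *NCU09209* had 7128 and 10461 counts in the set-2 deletion, 89 and 1 in ash1(Y888F), 113 and 149 in the parent and 58 and 12 in WT (7.83 ± 0.76, adjusted p = 0.00248). Its divergent marked neighbour *NCU09210* rose too, with 8452 and 10524 counts in the set-2 deletion against 52 and 17 in WT (7.97, adjusted p = 0.00127). So did *NCU01860* (4.23, adjusted p = 0.00188) and *NCU09357* (3.88, adjusted p = 0.0153), the marked neighbours of *NCU01861* and *NCU09356* given next. *NCU01861* had 839 and 1277 counts in the set-2 deletion against 14 and 4 in WT (6.74 ± 0.50, adjusted p = 0.00127), and *NCU09356* had 968 and 7290 against 129 and 83 (5.16 ± 0.98, adjusted p = 0.0134, and 0.116 without WT replicate 2), a spread between the set-2 deletion libraries larger than that of con-10, *NCU09209* or *NCU01861*.

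Genes that fell most in the set-2 deletion, other than *NCU06063* and *NCU07117*, included gst-4, a glutathione S-transferase gene. It had 48 and 56 counts in the set-2 deletion and 428 and 456 in ash1(Y888F), against 690 and 2018 in WT and 776 and 795 in the parent (-4.79 ± 0.53 in the set-2 deletion, adjusted p = 0.00324). It overlaps its convergent marked neighbour *NCU06938* by 160 bp, which had 2318 and 2120 counts in ash1(Y888F) and 3 and 0 in WT, the log2 fold change of gst-4 in ash1(Y888F) being -1.51 (adjusted p = 0.106). acw-12, a cell wall protein gene with marked genes on both sides, had 219 and 173 counts in the set-2 deletion and 3892 and 2741 in ash1(Y888F), against 3333 and 3536 in WT (-4.24 ± 0.23, adjusted p = 0.000928, in the set-2 deletion and 0.04, adjusted p = 0.959, in ash1(Y888F)).

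*NCU04592* had 35 and 8 counts in the set-2 deletion and 163 and 57 in ash1(Y888F), against 399 and 509 in WT, and fell in both mutants (-4.50 and -1.92). *NCU05045* had 20 and 10 counts in the set-2 deletion and 368 and 616 in ash1(Y888F), against 221 and 305 in WT. It fell by 4.22 on the log2 scale in the set-2 deletion (adjusted p = 0.00194) and rose by 0.96 in ash1(Y888F) (adjusted p = 0.0904). The mitochondrial chaperonin gene hsp60 fell in the set-2 deletion, with 875 and 638 counts against 3080 and 4365 in WT (-2.40 ± 0.26, adjusted p = 0.00324). So did tim44, a subunit of the mitochondrial protein import motor, with 416 and 316 counts against 1111 and 1717 (-2.05 ± 0.26, adjusted p = 0.00463), which also fell in ash1(Y888F), to 702 and 560 (-1.06, adjusted p = 0.0903), though not against the parent (-0.59, adjusted p = 0.257).

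The gene for ASH1 itself, *NCU01932* (set-3 in RefSeq, LG I, 1970618 to 1976166, minus strand), is a border gene. Its divergent marked neighbour is *NCU16344*, at 1874 bp. It had 556 and 825 counts in the ash1(Y888F) strain, 179 and 181 in the set-2 deletion, 711 and 784 in the parent and 668 and 675 in WT. The point mutant did not pass the test (0.10 ± 0.25, adjusted p = 0.863), while the set-2 deletion fell by 2.01 on the log2 scale (SE 0.18, adjusted p = 0.00184). A point mutation leaves the transcript in place, so these counts do not check the label of the mutant. set-2 is not a border gene, and its counts are given above.

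By function, gene lists matched by symbol held between 0 and 16 border genes each, where border genes are 14.2% of all genes. Of 35 genes on the conidiation list 16 are border genes, all tested. In ash1(Y888F) 1 was higher (con-10) and 2 lower (ada-6 and the cell wall protein gene acw-10), while in the set-2 deletion 4 were higher and 4 lower. Genes with acw and ccg symbols are among the 16 by symbol only, as is cat-1, and whether they act in conidiation was not checked. Over all genes tested 13% were higher and 3.36% lower in ash1(Y888F), and 21.7% and 19.8% in the set-2 deletion, and the counts of each list are a description beside those shares. acw-10 had 257 and 159 counts in ash1(Y888F) against 453 and 657 in WT (-1.31, adjusted p = 0.073). Against the parent acw-10 was called lower too (-1.81, adjusted p = 0.0212), as was ada-6 (-2.84, adjusted p = 0.0321), and con-10 was called higher (2.20, adjusted p = 0.0223). Neither con-10 nor acw-10 was called without WT replicate 2 (adjusted p = 0.179 and 0.261). Of 95 genes listed for plant cell wall degradation 12 are border genes, of which 2 were called in ash1(Y888F), both higher. These were gh76-5, a glycosyl hydrolase gene with 224 and 307 counts against 133 and 162 (0.91, adjusted p = 0.0884), and cel-2, with 5975 and 4368 against 2219 and 2696 (1.17, adjusted p = 0.0924). cel-2 encodes a fatty acid synthase subunit and entered the list only by its prefix. Genes with gh76 and gh18 symbols were taken in by symbol too, and whether they act on plant cell walls was not checked. The call of gh76-5 was lost without WT replicate 1 or 2 (adjusted p = 0.415 or 0.37) and without ash1(Y888F) replicate 2 (0.136). That of cel-2 was lost without WT replicate 1 or 2 (0.514 or 0.48) and kept without either ash1(Y888F) library. Against the parent neither was called (adjusted p = 0.125 for gh76-5 and 0.38 for cel-2).

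Of 39 chromatin modification genes 7 are border genes, and 1 was higher in ash1(Y888F). This was set-5, a SET-domain gene, with 102 and 97 counts against 27 and 5 (2.68 ± 0.72, adjusted p = 0.0703, and 0.113 without WT replicate 2), beside a marked gene 333 bp upstream in tandem that rose too (354 and 795 counts against 151 and 90). Against the parent set-5 was called higher too (4.37, adjusted p = 0.0178). In the set-2 deletion 3 of the 7 border genes were higher and 1, the ASH1 gene, lower, beside 21.7% and 19.8% of all genes tested there and 13% higher in ash1(Y888F). Among 18 genes of nitrogen, sulfur and phosphorus control, pho-3, an acid phosphatase gene, had 224 and 505 counts in ash1(Y888F) against 119 and 44 (2.17, adjusted p = 0.07), with an adjusted p of 0.12 without WT replicate 2 and 0.112 without ash1(Y888F) replicate 2. The parent had 198 and 84 counts, and pho-3 was not called against it (1.55, adjusted p = 0.132). The lists for mating and for light and the clock had 7 and 4 border genes, with sub-1 lower in both and asd-1 higher in the first.

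In edgeR's test no border gene was called in ash1(Y888F) among 8 of mitochondrial respiration, 7 of amino acid synthesis, 9 of MAP kinases, cell fusion and G proteins, 6 of heat shock and oxidative stress, 3 of quinic acid and sugar use, 3 of DNA repair, 2 of nuclear import and the cytoskeleton, and 1 each of cell wall synthesis and heterokaryon incompatibility. Of these 40 genes, acu-9, cat-1, gla-2 and gpr-6 had an unadjusted p under 0.05 (4 genes), and DESeq2 called acu-9 and cat-1 (2 genes). In the set-2 deletion, 7 border genes of amino acid synthesis had 1 higher and 4 lower, and 6 border genes of heat shock and oxidative stress 3 higher and 1 lower, beside 21.7% and 19.8% of all genes tested. The 3 higher were cat-1, with 3217 and 3736 counts against 579 and 272, cat-2, a catalase-peroxidase gene, and hsp90a. The 1 border gene for secondary metabolism, pks-2, had too few counts to be tested in ash1(Y888F), and the histone, RNA silencing, ribosomal protein and thiamine lists held no border gene.

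Between the 2 control strains, 1 of 1289 border genes was higher in the mus-52 parent than in WT (0.0776%) and 25 were lower (1.94%), against 0.277% and 1.46% of genes with no marked neighbour, and over all 7464 genes tested 0.268% were higher and 1.51% lower. At an unadjusted p under 0.05 it was 90 and 160 border genes, for which no share of other genes was taken. DESeq2 called 26 (2.00%) and 82 (6.30%), against 1.73% and 4.63% of genes with no marked neighbour. The libraries of the control strains share the number in the library names, and same-numbered libraries of these strains deviated together (correlation 0.657, from 2 pairs). With the replicate number as a block, 173 border genes were higher (13.4%) and 244 lower (18.9%) in the parent, against 16.6% and 16.2% of genes with no marked neighbour. The small count thus rests on the fit without the block.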

How the data were processed

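The members and the gene lists were chosen with earlier results of these data known. The RNA files hold counts of reads per gene on the gene's strand, which the authors made from single-end reads of a stranded poly-A+ kit with TopHat2 and HTSeq on the NC12 assembly. A table without a header, used for 1 parent library, holds 7 further columns that were not used. The BED lists of marked genes deposited by the authors carry a placeholder score of 0, and the H3K27me2/3 table holds the authors' log2 ratio of ash1(Y888F) to WT per marked gene. Files of the authors' own fold changes and p-values were not used.

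Genes of the 2 ASH1 lists were sorted by start on each linkage group (LG) to find neighbours and gaps, and 9729 of 9730 matched RefSeq (NC12), which gave 1118 symbols. WT level is the mean CPM of the 2 WT libraries per kb of gene span. Counts were fitted pairwise over all genes with edgeR 4.0.16 (R 4.3.3; TMM factors, filterByExpr, quasi-likelihood F test, Benjamini-Hochberg over all genes tested, threshold 0.1), which was tested on simulated data. Standard errors are the log2 fold change over the root of F and are approximate. The difference between mutants was fitted over ash1(Y888F), set-2 deletion and WT libraries together. Intervals for ratios of summed counts are exact (95%) and cover counting error only.

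Named genes were border genes with adjusted p under 0.1, a mean log2 CPM of at least 3 and both mutant libraries beyond both WT libraries. Of these the 10 higher and 6 lower with the largest fold in ash1(Y888F), 6 and 6 in the set-2 deletion, and the 6 with a symbol and the smallest p in each were taken, with 5 close pairs, up to 3 members of each gene list and the ASH1 gene. Alternatives were DESeq2 1.42.0, relative log expression factors, no filter, a threshold of 0.05, all 4 strains in 1 fit, a replicate block, the parent as control, leaving out each library, more than 20 WT counts, gaps of up to 1000 bp, and leaving out overlapping genes or 200 kb at chromosome ends. A crossed block and a minimum of 5 CPM per kb were chosen after seeing the data.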

Additional observations from a re-analysis of the deposited data

Results flagged for a closer look

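Of 66 named border genes, 40 differed between the effects of the 2 mutants in the direct test (ash1(Y888F) minus the set-2 deletion on the log2 scale, edgeR, adjusted p of 0.093 or less), 28 with the higher level in ash1(Y888F) and 12 with the lower one. No share over all genes was taken for this test, so the count has no background beside it. Both effects are set against the same WT libraries, and the genes were named for their change in 1 of the mutants. The set-2 deletion also differs in mating type and is listed without his-3. The direct test used no replicate block, although same-numbered libraries of the mutants deviated with a correlation of 0.436. These values are therefore given as a description of the 2 strains, and why they differ was not tested.

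In 4 genes the mutants were called in opposite directions. The difference was -7.78 for *NCU00995* (-6.83 in ash1(Y888F) and 0.93 in the set-2 deletion against WT), 5.19 for *NCU05045* (0.96 and -4.22), 2.41 for tcu-1 (1.27 and -1.15) and 1.86 for gh76-5 (0.91 and -0.95). In ash1(Y888F) neither tcu-1 nor gh76-5 was called against the parent (adjusted p = 0.356 and 0.125) or without either WT library.

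Among the other genes with the lower level in ash1(Y888F) the difference was -7.37 for *NCU09209*, -5.04 for *NCU09356*, -4.07 for con-10, -3.34 for *NCU01861*, -3.20 for *NCU09562*, -2.19 for ada-6, -2.12 for *NCU06413*, -1.81 for acw-10, -1.70 for cat-1, -0.82 for het-c and -0.65 for qa-Y.

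Among those with the higher level in ash1(Y888F) it was above 4 in 9 genes, with 8.85 for *NCU00806*, 6.49 for *NCU08969*, 5.82 for *NCU07034*, 5.37 for *NCU04282*, 5.34 for *NCU05039*, 5.28 for neg-1, 4.51 for *NCU08803*, 4.50 for *NCU08432* and 4.27 for acw-12. It was 3.48 for *NCU12025*, 3.27 for gst-4, 2.94 for *NCU06063*, 2.56 for *NCU04592*, 2.26 for pho-3, 2.18 for pmg, 2.17 for parp, 2.11 for set-3 and 2.03 for asd-1. The smallest differences in this direction were 1.82 for set-5, 1.81 for *NCU07117*, 1.71 for hsp60, 1.65 for fsd-1, 1.40 for *NCU06061*, 0.98 for tim44 and 0.85 for crf8-1.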

How the results depend on the processing

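The share of border genes higher in ash1(Y888F) than in WT was 1.85 to 2.91 times that of genes with no marked neighbour under the alternatives run on the fit or the gene set, and in the set-2 deletion 1.13 to 1.42 times, but only 1.59 and 1.03 times that expected at the same WT levels. The counts moved more. Higher in ash1(Y888F) were 66 border genes at an adjusted p under 0.05, 69 with gaps of up to 1000 bp and 37 at 5 CPM per kb or more, where fewer genes were counted, and 57 to 158 with a library left out (main value 109). Lower in ash1(Y888F) were 100 with all 4 strains in the fit, 27 at 0.05, 20 with gaps of up to 1000 bp and 19 to 161 with a library left out (main value 55). The ratio of lower shares in ash1(Y888F), 1.17, was on the other side of 1 with all strains (0.987), against the parent (0.994), with gaps of up to 1000 bp (0.862) and with a library left out (0.921 to 1.40), so no direction is given for it. For the set-2 deletion the counts were 151 higher and 139 lower with gaps of up to 1000 bp, 161 higher at 5 CPM per kb or more, and 140 to 248 higher and 130 to 260 lower with a library left out. Its ratio of lower shares, 1.01, was 0.993 with DESeq2, 0.996 with all strains, 0.903 against the parent, 0.937 without overlapping genes and 0.984 to 1.21 with a library left out.

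For the parent against WT (1 border gene higher and 25 lower) the counts were 26 and 82 with DESeq2, 3 higher with no filter, 0 and 7 with all strains, 0 and 0 at an adjusted p under 0.05 in edgeR (90 and 160 at an unadjusted p under 0.05), 10 lower with gaps of up to 1000 bp, and 1 to 9 higher and 15 to 43 lower with a library left out. The replicate block gave 98 higher and 44 lower border genes in ash1(Y888F) and 258 and 219 in the set-2 deletion. In the parent it gave 173 (13.4%) and 244 (18.9%), against 16.6% and 16.2% of genes with no marked neighbour. Libraries with the same number deviated with a correlation of 0.657 between the parent and WT, 0.436 between ash1(Y888F) and the set-2 deletion, -0.218 between ash1(Y888F) and WT and -0.177 between the set-2 deletion and WT. With 2 pairs and no label that ties the numbers, they were not taken as pairs. The crossed replicate block gave 161 higher and 117 lower border genes in ash1(Y888F) and 327 and 313 in the set-2 deletion, with ratios of lower shares of 1.04 and 0.994. The cause of these differences was not tested.

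Of 539 values of single named genes or their neighbours under alternatives, 491 stayed on the same side of the threshold, 28 lost the call and 20 gained one, and no called gene changed direction. With 2 libraries a strain and lists from 1 ChIP-seq sample, small changes and misassigned neighbours cannot be seen, and under 1 CPM per kb in WT 48 of 114 border genes had too few counts to test.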
